A study of Mus musculus with 4 samples.

Results

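Histone demethylases and histone deacetylases remove the methyl and acetyl groups that other enzymes place on histone tails. The genes described here are the rows of the deposited expression table whose symbol begins with Kdm1 to Kdm8, with Hdac and a digit, or with Sirt1 to Sirt7. This rule found 34 genes of the 23234 in the table, 16 of them demethylases and 18 deacetylases. The cells were extensively self-renewing erythroblasts (ESREs), a culture of immature red cell precursors from the early mouse fetus that goes on dividing. Their RNA was sequenced in 1 library per group, so no difference below has a replicate check. The proliferating knockdown cells carried a short hairpin RNA against Setd8, the enzyme that places 1 methyl group on lysine 20 of histone H4. The maturing control cells carried a hairpin without a target and had spent 6 h in maturation medium. Proliferating control cells carried the same kind of hairpin without a target and stayed in growth conditions. All cells therefore carried a hairpin RNA, and the knockdown rested on 1 library, whose title holds a number that the labels do not explain. The labels also name maturing knockdown cells, which were not analysed here. Levels are FPKM, sequenced fragments scaled to transcript length and library size, so levels of different genes can be set side by side.

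Lysine demethylases fall into a small amine oxidase family (Kdm1a and Kdm1b) and a large JmjC family, named after its shared catalytic domain. Deacetylases that need zinc form the classes I, IIa, IIb and IV, and the sirtuins use NAD instead. In red cell precursors, Kdm1a, Hdac1 and Hdac2 are known as the enzymes of corepressor complexes that the transcription factor Gfi1b brings to its target genes. Class I deacetylation is also known to be needed for the chromatin to condense before the nucleus is lost.

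Setd8 was at 9.28 FPKM in the knockdown library, 25.9 FPKM in the maturing control and 25.1 FPKM in the proliferating control, so the knockdown held 37.0% of the proliferating control level. The authors' deposited table put its log2 ratio at -1.43, where the adjusted p (q) was 0.0122. From the smallest steps between values of rare transcripts, the knockdown library was 1.44 times and the maturing control library 1.55 times as deep as the proliferating control. The erythroid marker list had summed levels of 674.6 FPKM in the knockdown, 2962 FPKM in the maturing control and 1826 FPKM in the proliferating control, and none of its 10 rows was at 0 in any library. The 11 mast cell and basophil markers summed to 501.5, 38.1 and 71.0 FPKM in the same order of libraries, with only Mcpt8 at 0, in the proliferating control. Of these markers, 9 were measured, and the authors' deposited table marked 8 of the 9 as higher in the knockdown. In maturation it marked 4 of the 9 as lower and 0 as higher. Megakaryocyte and platelet markers summed to 27.9, 13.6 and 19.3 FPKM, with Gp6 and Ppbp at 0 throughout. The authors' deposited table marked 2 of their 4 measured genes as higher in the knockdown and 0 in maturation. Granulocyte and monocyte markers summed to between 1.24 and 1.54 FPKM, with Elane and Lyz2 at 0 in all 3 libraries, and lymphocyte markers and fibroblast and endothelial markers summed to at most 0.0425 and 0.230 FPKM in any library. Of the 10 erythroid rows, whose sum is mostly globin, the authors' deposited table marked 3 as lower in the knockdown. In maturation it marked 1 of the 10 as higher and 0 as lower. The erythroid factor Gata1 was at 61.1 FPKM in the knockdown, 65.5 FPKM in the maturing control and 52.8 FPKM in the proliferating control, so the erythroid markers did not all lie on the same side. The part of these marker shifts in any value below was not tested. In bulk RNA, fewer cells of a type and less RNA per cell cannot be told apart.

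Nearly all of the 34 enzymes were expressed in these cells. At least 1 FPKM in 1 library or more, called measured here, was reached by 31 of the 34, and 29 reached it in all 3 libraries. The 3 genes below it throughout were Kdm4d, Hdac9 and Sirt5. Hdac4 was measured only through the knockdown library and Hdac11 only through the maturing control, so these were bound to differ between libraries once they passed. By the highest value of each gene, those next to the limit were Hdac11 at 1.02 FPKM and Kdm4d at 0.882 FPKM, both in the maturing control. The median level of the 34 genes was 3.69 FPKM in the knockdown, 3.44 FPKM in the maturing control and 3.18 FPKM in the proliferating control. The 9611 measured genes of the whole table had medians of 5.17, 5.39 and 5.31 FPKM in the same order. Hdac1, Sirt2 and Hdac2 held the first 3 ranks among the 34 in every library.

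**Figure D1:**
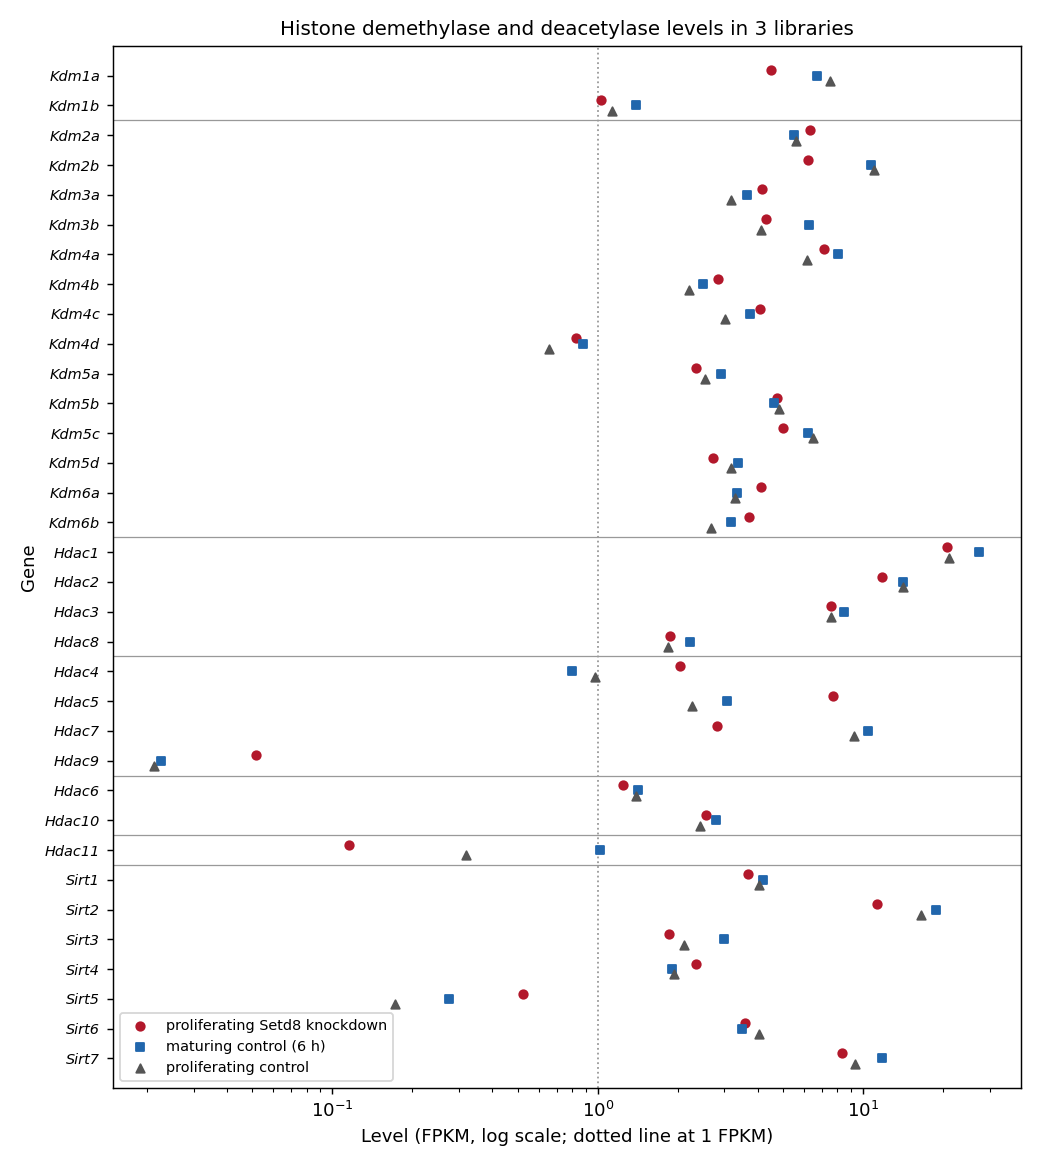
Level of each of the 34 genes (FPKM, log scale) in the proliferating Setd8 knockdown, the maturing control and the proliferating control, 1 library each, with horizontal lines between enzyme classes and a dotted line at 1 FPKM. The 3 points of most genes lie close together, while Hdac5, Hdac7, Hdac4, Hdac11 and the low genes Sirt5 and Hdac9 are spread apart.

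No enzyme was marked between the knockdown and the proliferating control, and by size of ratio the share that differed was near that of all genes. The authors' deposited table tested 32 of the 34 genes and marked 0 of them in either direction. It marked 9.05% of 11665 tested genes, 5.81% as higher and 3.24% as lower in the knockdown. At an unadjusted p under 0.05 in that table there were 2, Hdac11 and Sirt5, which is 6.25% of the 32 against 14.7% of all tested genes. By size, 6 of the 31 measured members had a log2 ratio of FPKM + 1 of 0.5 or more in size. Of these, 2 were higher, Hdac5 and Hdac4, the latter measured only through the knockdown library. The 4 lower were Hdac7, Kdm2b, Kdm1a and Sirt2, of which Sirt2 was not past 0.5 under 3 other scalings of the libraries. The background for these counts was 10.9% higher and 8.81% lower among 9611 measured genes, so the total of 19.4% of the members stands beside 19.7% of all genes. The median log2 ratio was -0.03 over the measured members, between 0.03 and 0.06 under 3 other scalings of the libraries, and -0.05 over all measured genes. The standard error that the deposited ratios and statistics imply had a median of 0.50 on the log2 scale for the tested members, from 0.42 for Kdm2a to 1.17 for Sirt3. For most members a log2 ratio below about 1 in size was thus within the 95% interval of the authors' model.

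After 6 h of maturation few of the enzymes differed, as few of all genes did. The authors' deposited table marked 1 of 32 tested members (3.13%) as higher and 0 as lower. This stands beside 0.584% higher and 1.17% lower, 1.75% in all, among 11298 tested genes. At an unadjusted p under 0.05 in that table there was also 1 member, against 4.9% of tested genes. By size, 1 of 31 measured members (3.23%) was past 0.5 higher and 0 lower. The background was 4.2% and 4.74%, or 8.95% in either direction. Hdac11 was the member counted both ways, and it was measured only through the maturing control, at 1.02 FPKM. The median log2 ratio of the measured members was 0.14, against 0.01 over all measured genes, and 22 of the 31 had a value above 0, or 10 of 15 demethylases and 12 of 16 deacetylases. Among all measured genes 52.6% did so.

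**Figure D2:**
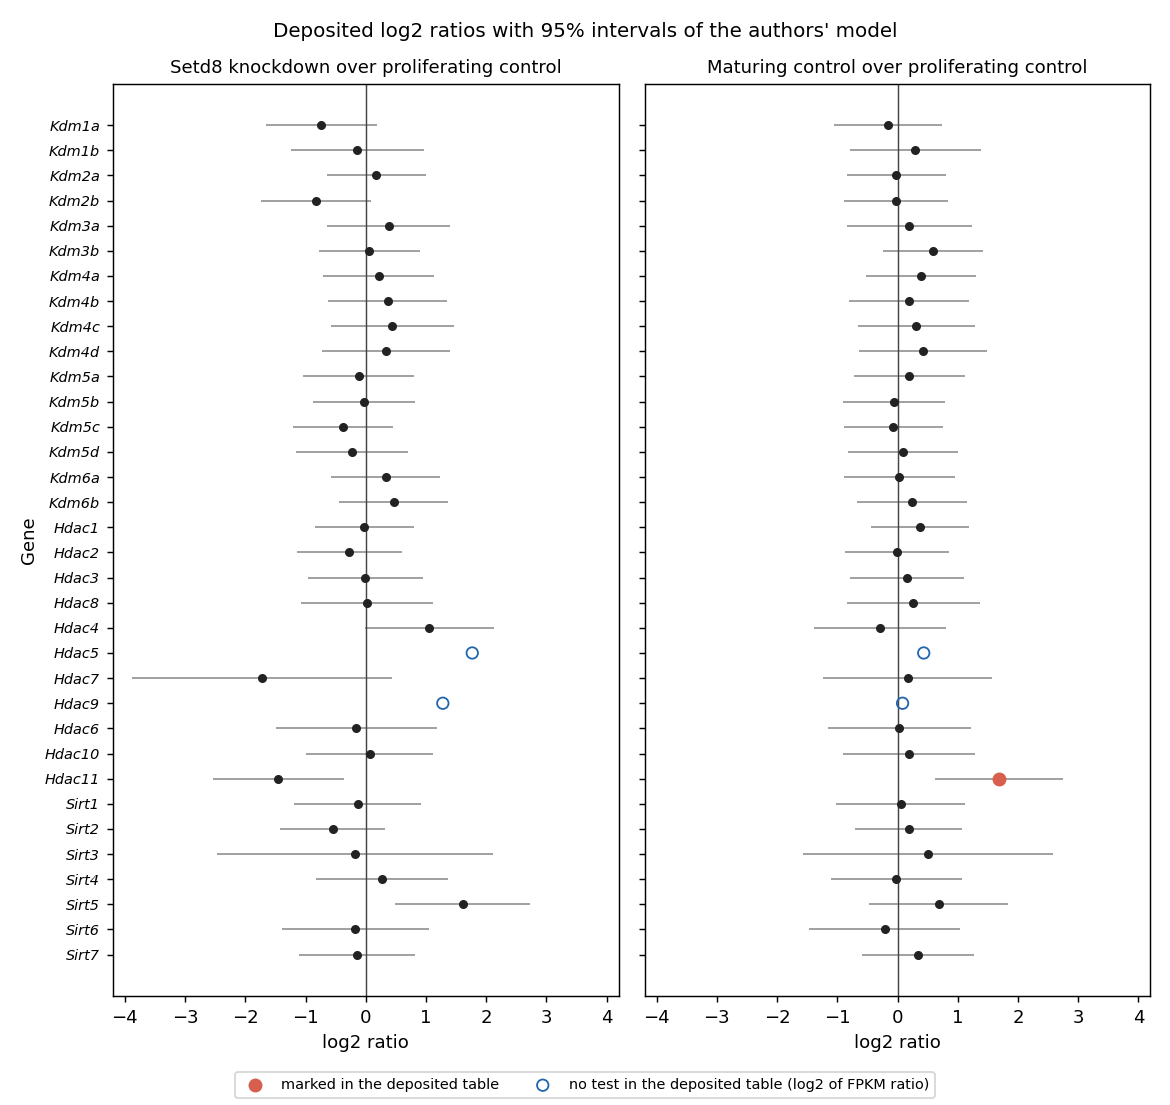
Log2 ratio of each gene from the authors' deposited table (points) with the 95% interval of their model (lines), for the Setd8 knockdown over the proliferating control (left) and the maturing control over the proliferating control (right). Hdac11, at 1.68 in maturation, is the only marked point, and open circles give the log2 ratio of FPKM for Hdac5 and Hdac9, which have no test in the table.

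The amine oxidase demethylases remove methyl groups from lysine 4 of histone H3. Kdm1a, also called Lsd1, the catalytic partner of CoREST (mm9 chr4:136106447-136158638), was at 4.48 FPKM in the knockdown, 6.68 FPKM in the maturing control and 7.47 FPKM in the proliferating control. Its level was lowest in the knockdown, with a log2 ratio to the proliferating control of -0.74 (implied standard error 0.47) and a q of 0.673 in the authors' deposited table. Kdm1b, the relative known for its role in oocytes, was at 1.03, 1.39 and 1.14 FPKM in the same order of libraries. Kdm1a thus made up 81.3% of the pair's summed level in the knockdown, 82.7% in the maturing control and 86.8% in the proliferating control.

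Kdm5 enzymes, of the JmjC family, also act on lysine 4 of histone H3, at its di- and trimethylated forms. Kdm5b was the most even of them, at 4.72 FPKM in the knockdown, 4.63 FPKM in the maturing control and 4.8 FPKM in the proliferating control. Kdm5c, from the X chromosome, was at 5.0, 6.17 and 6.47 FPKM in that order, and Kdm5d, its Y-linked relative, at 2.71, 3.38 and 3.17 FPKM. Kdm5c and Kdm5d are similar in sequence, so some fragments may have been assigned to either. Kdm5a was at 2.34, 2.91 and 2.54 FPKM, and the deposited table gives it the same span as Ccdc77, so its separate level is less certain. All 6 enzymes grouped here under this lysine, Kdm1a and Kdm1b included, had lower values in the knockdown than in the proliferating control, none of them marked. Their sum was 20.3 FPKM in the knockdown, 25.2 FPKM in the maturing control and 25.6 FPKM in the proliferating control. Among all measured genes 55.6% had a lower value in the knockdown, and this was between 45.9% and 50.3% under 3 other scalings of the libraries (centred on abundant genes, with equal upper quartiles, and as TPM). Under each of these 3 scalings 1 of the 6 enzymes had a higher value, which left 5 lower.

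The Kdm3 and Kdm4 enzymes act on lysine 9 of histone H3 and were grouped here for it, and several Kdm4 enzymes also act on lysine 36. Enzymes placed under another lysine were not counted in this group. Kdm3a, a gene known to be induced by low oxygen, was at 4.15 FPKM in the knockdown, 3.65 FPKM in the maturing control and 3.19 FPKM in the proliferating control. Kdm3b was at 4.30, 6.24 and 4.14 FPKM in that order, so it stood apart in the maturing control. The log2 ratio for maturation was 0.59 (implied standard error 0.42) with a q of 0.791 in the authors' deposited table. Kdm4a was at 7.11, 8.01 and 6.13 FPKM, Kdm4b at 2.84, 2.50 and 2.20 FPKM and Kdm4c at 4.08, 3.74 and 3.01 FPKM. Kdm4d stayed at 0.831, 0.882 and 0.657 FPKM. In each of the 5 measured genes of the group the proliferating control had the lowest of the 3 values. Their sum, with Kdm4d, was 23.3 FPKM in the knockdown, 1.21 times the 19.3 FPKM of the proliferating control. In the maturing control it was 25 FPKM, or 1.30 times the proliferating control. All 5 measured genes were also higher in both comparisons under the 3 other scalings, where between 49.6% and 54% of all measured genes were higher in the knockdown (44.3% as deposited) and between 51.3% and 56.4% in the maturing control (52.6% as deposited). No gene of this group was marked in the authors' deposited table, and the 2 comparisons share the proliferating control library.

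The lysine 27 demethylases of histone H3 undo the mark of the Polycomb complex PRC2. Kdm6a, which is X-linked and also called Utx, was at 4.14 FPKM in the knockdown, 3.35 FPKM in the maturing control and 3.29 FPKM in the proliferating control. Kdm6b, also called Jmjd3, was at 3.71, 3.17 and 2.68 FPKM in that order. Both had their highest value in the knockdown, where their sum was 1.31 times that of the proliferating control, and neither was marked. Grouping the demethylases by the lysine they act on was done after their values had been seen. No gene was placed in several groups, so a group need not hold every enzyme that acts on its lysine.

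Kdm2a and Kdm2b act on lysine 36 of histone H3 and bind unmethylated CpG DNA, and Kdm2b is known to bring a variant Polycomb complex to CpG islands. In the knockdown their values lay on opposite sides of the proliferating control, neither of them marked. Kdm2b (mm9 chr5:123320684-123439101) was at 6.17 FPKM in the knockdown, against 10.7 FPKM in the maturing control and 11 FPKM in the proliferating control. Its log2 ratio for the knockdown was -0.83 (implied standard error 0.46), with a p of 0.0737 and a q of 0.50 in the authors' deposited table. Kdm2a was at 6.29, 5.49 and 5.57 FPKM in the same order. Its deposited log2 ratio for the knockdown was 0.18, smaller than the implied standard error of 0.42, with a p of 0.673 in the authors' deposited table. Kdm2b was the most abundant demethylase in both control libraries, while in the knockdown Kdm4a and Kdm2a had higher levels.

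Class I deacetylases are mainly nuclear enzymes, and their levels in the knockdown lay near those of the proliferating control. Hdac1 was at 20.7 FPKM in the knockdown, 27.4 FPKM in the maturing control and 21.1 FPKM in the proliferating control. Hdac2, which forms dimers with Hdac1 in the NuRD, Sin3 and CoREST complexes, was at 11.8, 14.1 and 14.2 FPKM in that order. Hdac3, the enzyme of the NCoR and SMRT complexes, was at 7.55, 8.44 and 7.58 FPKM. These levels placed Hdac1 above 94.2% of all genes in the proliferating control. Hdac8, known for deacetylating the cohesin subunit Smc3, was at 1.87, 2.22 and 1.85 FPKM. The class summed to 41.8 FPKM in the knockdown, 52.1 FPKM in the maturing control and 44.7 FPKM in the proliferating control. The knockdown sum was 0.937 times that of the proliferating control, and between 0.972 and 0.999 times under the other scalings. No class I gene had a log2 ratio of FPKM + 1 past 0.5 in size in either comparison.

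Class IIa deacetylases shuttle between cytoplasm and nucleus, bind Mef2 transcription factors and have little catalytic activity of their own. In this class the knockdown library held another mix of genes at nearly the same total. Hdac7 (mm9 chr15:97614795-97674933) was at 2.81 FPKM in the knockdown, against 10.5 FPKM in the maturing control and 9.27 FPKM in the proliferating control, so the knockdown held 30.3% of the proliferating control level. Hdac5 (mm9 chr11:102057060-102091486) was at 7.70 FPKM in the knockdown, against 3.06 and 2.26 FPKM in the maturing and proliferating controls, 3.41 times the proliferating control. Hdac4 (mm9 chr1:93829331-94044970) was at 2.04 FPKM in the knockdown, against 0.798 FPKM in the maturing control and 0.977 FPKM in the proliferating control. For all 3 genes the 2 control libraries lay closer to each other than either did to the knockdown. Hdac9 was at 0.0517, 0.0226 and 0.0213 FPKM, too low to be tested in the deposited table.

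None of these class IIa differences was marked. For Hdac7 the authors' deposited table gave a log2 ratio of -1.72 with an implied standard error of 1.10, and a q of 0.669. It lists Hdac7 with the same span as its neighbour Slc48a1, a haem transporter gene at 31.4 FPKM in the knockdown, 39.6 FPKM in the maturing control and 38.9 FPKM in the proliferating control. The median implied standard error of the members was 0.50, and only Sirt3, which also shares its span with a neighbour, had a larger one than Hdac7. Kdm5a and Sirt2 share their spans too, and their implied standard errors were 0.47 and 0.44. How fragments were split between genes of 1 span is not given in the sources used here, so the level of Hdac7 is uncertain to that extent. For Hdac4 the deposited log2 ratio was 1.06 (implied standard error 0.55), with a p of 0.0525 and a q of 0.399. The test of Hdac5 failed in every comparison of the deposited table, so its difference carries no error at all.

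The class IIa sum was 12.6 FPKM in the knockdown, 14.3 FPKM in the maturing control and 12.5 FPKM in the proliferating control. Hdac7 gave 22.3% of it in the knockdown, 72.9% in the maturing control and 74.0% in the proliferating control. Hdac5 gave 61.1% in the knockdown, 21.3% in the maturing control and 18% in the proliferating control, and Hdac4 gave 16.2%, 5.57% and 7.80%. These shares are taken within a library and do not depend on how libraries are scaled to each other. In rank among the 34 genes, Hdac5 stood 5th in the knockdown and 23rd in the proliferating control, and Hdac7 stood 21st in the knockdown and 6th in the proliferating control.

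**Figure D3:**
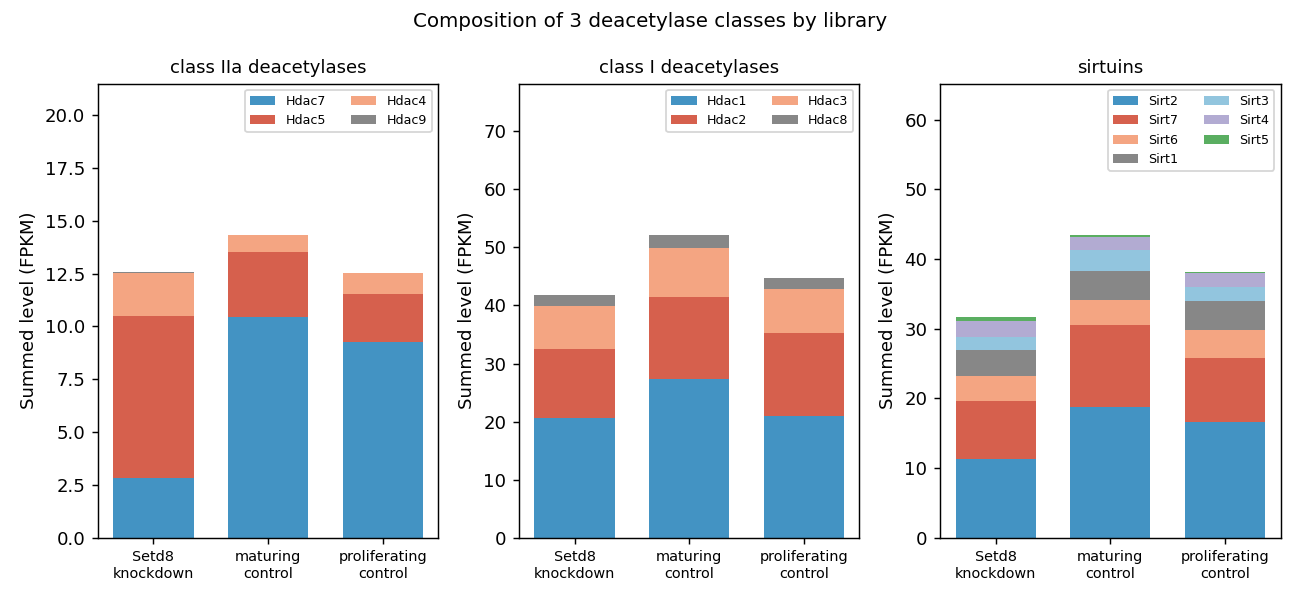
Summed level (FPKM) of class IIa deacetylases, class I deacetylases and sirtuins in the Setd8 knockdown, the maturing control and the proliferating control, 1 library each, with each gene as a segment. In class IIa the Hdac7 segment is 22.3% of the bar in the knockdown and 74.0% in the proliferating control at sums of 12.6 and 12.5 FPKM, while the segments of class I keep similar proportions.

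Hdac11, the only class IV enzyme, removes long-chain fatty acyl groups from lysine. The gene (mm9 chr6:91106808-91124677) was at 0.116 FPKM in the knockdown, 1.02 FPKM in the maturing control and 0.318 FPKM in the proliferating control. The level was low in all libraries and highest in the maturing control, 3.20 times the proliferating control. The authors' deposited table marked Hdac11 as higher in maturation, at a log2 ratio of 1.68 (implied standard error 0.54) and a q of 0.0286. For the knockdown it gave -1.45 (implied standard error 0.55), a p of 0.00885 and a q of 0.103, which was not marked. That table also compares the knockdown library with the maturing control, a pair that differs in both hairpin and medium. There Hdac11 was the 1 marked member of 32 tested, at a log2 ratio of -3.13 with q at 1.64e-06. Of 9241 genes tested there, 7.22% were marked higher and 4.38% lower in the knockdown, 11.6% in all. At an unadjusted p under 0.05 there were 2 members, Hdac11 and Hdac4, against 18.6% of tested genes.

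The promoters of Hdac4, Hdac5, Hdac7 and Hdac11 are shown because these genes are among those that differed most between the libraries. Each sequence is the 250 bases before a RefSeq start site on GRCm38.p6, read 5′ to 3′ along the gene. Capitals mark the GATA hexamers, AGATAA or AGATAG and TGATAA or TGATAG, which GATA factors can bind, and CACCC, the core of the box that Krüppel-like factors can bind, on either strand. The marks of the 2 motifs do not overlap in these windows. Hdac7 has 4 start sites in the RefSeq table, and 2 of its windows are shown. Both shown windows hold a GATA hexamer. Of those not shown, chr15:97814864-97815113 holds 1 and chr15:97831768-97832017 holds 0.
Hdac7 promoter, chr15:97831496-97831745, minus strand: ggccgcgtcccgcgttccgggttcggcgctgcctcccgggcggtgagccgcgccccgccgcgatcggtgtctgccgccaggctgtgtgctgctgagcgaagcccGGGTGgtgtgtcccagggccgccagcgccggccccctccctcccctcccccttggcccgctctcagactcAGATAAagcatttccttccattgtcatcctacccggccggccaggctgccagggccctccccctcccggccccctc
Hdac7 promoter, chr15:97844503-97844752, minus strand: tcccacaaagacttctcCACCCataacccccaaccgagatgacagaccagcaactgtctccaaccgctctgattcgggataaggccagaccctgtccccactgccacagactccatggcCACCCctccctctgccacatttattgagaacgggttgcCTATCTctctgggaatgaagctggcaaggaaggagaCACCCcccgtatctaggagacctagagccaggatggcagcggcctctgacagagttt
Hdac5 promoter, chr11:102230173-102230422, minus strand: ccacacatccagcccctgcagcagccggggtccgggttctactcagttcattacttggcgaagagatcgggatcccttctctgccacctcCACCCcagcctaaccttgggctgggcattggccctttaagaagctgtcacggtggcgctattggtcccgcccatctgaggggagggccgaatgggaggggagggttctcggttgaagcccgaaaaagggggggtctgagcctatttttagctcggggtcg
Hdac4 promoter, chr1:92180342-92180591, minus strand: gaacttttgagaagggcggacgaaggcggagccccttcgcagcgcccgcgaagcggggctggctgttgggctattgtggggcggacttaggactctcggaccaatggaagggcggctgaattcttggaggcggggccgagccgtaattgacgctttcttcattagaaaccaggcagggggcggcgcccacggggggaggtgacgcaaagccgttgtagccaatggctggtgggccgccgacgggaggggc
Hdac11 promoter, chr6:91156565-91156814, plus strand: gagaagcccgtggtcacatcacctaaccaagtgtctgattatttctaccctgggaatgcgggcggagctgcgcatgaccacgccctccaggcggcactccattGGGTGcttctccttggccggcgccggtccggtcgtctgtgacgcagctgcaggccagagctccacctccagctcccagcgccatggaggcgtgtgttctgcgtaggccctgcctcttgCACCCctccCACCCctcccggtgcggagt

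A GATA hexamer lay in 3 of the 4 Hdac7 windows, at -76 to -71 and at -93 to -88 from the start site in the 2 windows shown. None of the 4 hexamers lay in the windows of Hdac5, Hdac4 or Hdac11, which each had fewer windows than Hdac7. Hdac11 had 3 matches to CACCC, of which those at -29 to -25 and at -20 to -16 lay close to the start, Hdac5 had 1 and Hdac4 had none. RefSeq windows were found for 26 of the 34 genes, 38 windows in all, and Kdm2a, Kdm3b, Kdm4b, Kdm5a, Kdm6b, Hdac1, Hdac3 and Hdac10 had none. Of the 38 windows, 23.7% held a GATA hexamer, against 16.6% of 8612 windows of measured genes and 26.5% of all 32851 windows in the table. CACCC was in 60.5%, 56.3% and 52% of these 3 sets. A ratio of observed to expected CpG above 0.6 was found in 76.3% of the members' windows, 70.8% of those of measured genes and 34% of all. A match is a run of letters and not a shown binding site.

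The class IIb enzymes act mainly outside chromatin, Hdac6 on tubulin and Hdac10 on polyamines. Hdac6 was at 1.24 FPKM in the knockdown, 1.42 FPKM in the maturing control and 1.39 FPKM in the proliferating control. Hdac10 was at 2.55, 2.78 and 2.44 FPKM in that order. Their log2 ratios of FPKM + 1 stayed within 0.25 in size in both comparisons.

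Among the sirtuins, Sirt2, a mostly cytoplasmic deacetylase whose span the table shares with Gm19897, was the most abundant, at 11.3 FPKM in the knockdown, 18.8 FPKM in the maturing control and 16.5 FPKM in the proliferating control. Its log2 ratio for the knockdown was -0.55 (implied standard error 0.44), with a q of 0.909 in the authors' deposited table. Sirt7, a nucleolar enzyme, was at 8.35, 11.7 and 9.28 FPKM in the same order. Both were lowest in the knockdown and highest in the maturing control. Sirt1, a nuclear deacetylase, was at 3.68, 4.19 and 4.04 FPKM, and Sirt6, which acts on chromatin at telomeres and DNA breaks, was at 3.60, 3.51 and 4.06 FPKM.

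The mitochondrial sirtuins were lower in level. Sirt3, the main mitochondrial deacetylase, was at 1.86 FPKM in the knockdown, 3.0 FPKM in the maturing control and 2.12 FPKM in the proliferating control, and the deposited table gives it the same span as Ric8. Sirt4 was at 2.34, 1.91 and 1.94 FPKM. Sirt5, which removes succinyl and malonyl groups, was at 0.524 FPKM in the knockdown, 0.276 FPKM in the maturing control and 0.172 FPKM in the proliferating control. It thus had its highest value in the knockdown while staying below 1 FPKM throughout. The authors' deposited table gave it a log2 ratio of 1.61 (implied standard error 0.57) for the knockdown, with a p of 0.00490 and a q of 0.0635, which was not marked. The 7 sirtuins summed to 31.6 FPKM in the knockdown, 43.4 FPKM in the maturing control and 38.1 FPKM in the proliferating control. The knockdown sum was 0.830 times that of the proliferating control, and between 0.861 and 0.885 times under the other scalings.

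Partner genes of these enzymes were followed in 8 lists of other chromatin and NAD genes. In the knockdown the authors' deposited table marked 3 of their 81 tested genes, or 3.7%, beside 9.05% of all tested genes. The 1 of these among the 77 measured and tested genes was Ncoa1, a nuclear receptor coactivator from the list of acetyltransferases. Ncoa1 was at 1.5 FPKM in the knockdown, 0.547 FPKM in the maturing control and 0.478 FPKM in the proliferating control. Its deposited log2 ratio for the knockdown was 1.65 (q 0.0293). It was measured only through the knockdown library, so it was bound to differ between libraries once it passed. The acetyltransferase list had 13 measured genes and a median log2 ratio of FPKM + 1 of 0.06 in the knockdown. Of these 13 genes, 3 were past 0.5 higher and 0 lower, beside 10.9% and 8.81% of all measured genes. In maturation the authors' deposited table marked 0 of the 79 tested genes, beside 1.75% of all tested genes. Over all measured genes the median log2 ratio of FPKM + 1 was -0.05 in the knockdown and 0.01 in maturation. Under the other scalings the knockdown median of all measured genes was between -0.004 and 0.03. The list medians were not recomputed under those scalings.

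The CoREST and Gfi1 list, the partners of Kdm1a, had 11 measured genes and medians of 0.16 in the knockdown and 0.23 in maturation. Its most abundant member Gfi1b, a repressor needed for red cell formation, was at 54.8 FPKM in the knockdown, 107.1 FPKM in the maturing control and 80.7 FPKM in the proliferating control. Rcor1, the CoREST scaffold, was at 15.2 FPKM in the knockdown, against 11.5 FPKM in the proliferating control. Neither was marked. The 11 measured genes of the NuRD list had a median of -0.18 in the knockdown, among them the methyl-CpG binding protein Mbd2, at 32.2 FPKM in the knockdown, against 42.6 FPKM in the proliferating control. The 14 measured Sin3 genes had a median of -0.17. Sin3b, a scaffold of that complex, was at 25.5 FPKM in the knockdown, against 16.6 FPKM in the proliferating control, and Sap30l at 3.55 and 5.73 FPKM in that order. These 2 members lay on opposite sides of the list's median.

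In the list of NCoR and SMRT genes, 5 were measured, at a median of -0.07 in the knockdown. Gps2, a subunit of that complex, was at 8.52 FPKM in the knockdown, 15.7 FPKM in the maturing control and 12.8 FPKM in the proliferating control. The 8 measured genes of NAD supply and use had the lowest median of the 8 lists in the knockdown, -0.31. Parp1, which consumes NAD at DNA breaks, was at 15.2 FPKM in the knockdown, against 24.1 FPKM in the proliferating control. Nampt, which starts NAD synthesis from nicotinamide, was at 4.03 FPKM in the knockdown, 3.70 FPKM in the maturing control and 5.67 FPKM in the proliferating control. Both marked genes of this list were below 1 FPKM throughout and are named because they were marked. Nmnat2, which makes NAD from its mononucleotide, was at 0.765 FPKM in the knockdown, 0.0199 FPKM in the maturing control and 0.0231 FPKM in the proliferating control, and its q was 2.87e-13 in the authors' deposited table. Naprt1, which starts NAD synthesis from nicotinic acid, was at 0.0310, 0.344 and 0.236 FPKM in that order, with q at 0.00172 in the authors' deposited table. They thus lay on opposite sides of the proliferating control. For Parp1 the authors' deposited table gave a p of 0.0943 and a q of 0.586. The 13 measured genes of other JmjC proteins and the 4 of the PRC2 core had medians of -0.05 each in the knockdown. No measured member of these last 2 lists was past a log2 ratio of 0.5 in size in either comparison.

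**Figure D4:**
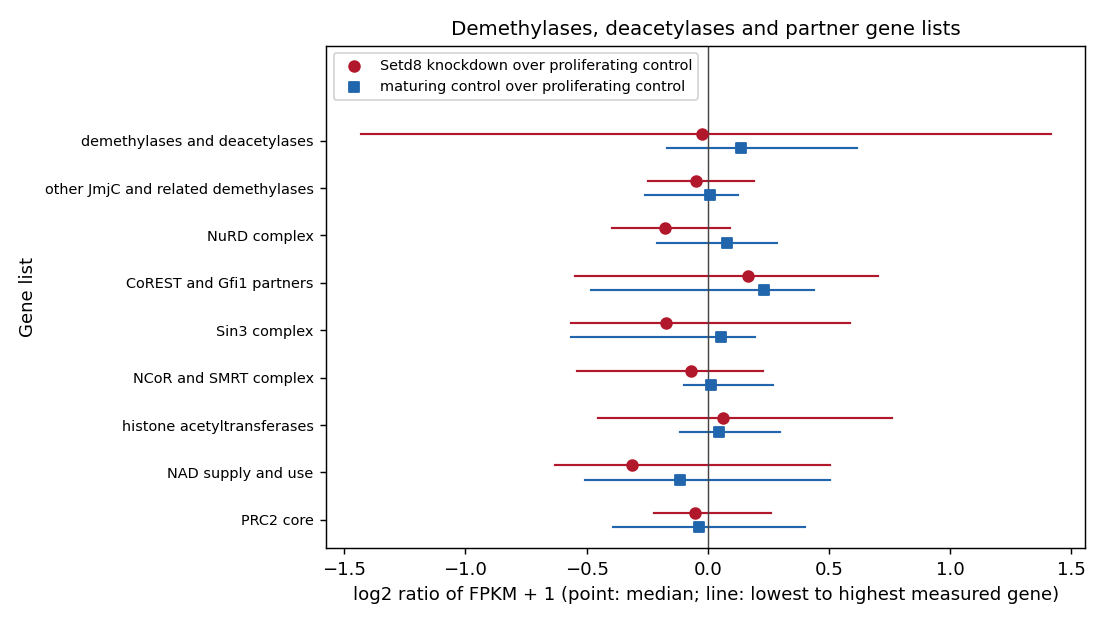
Median log2 ratio of FPKM + 1 (points) and the lowest to highest measured gene (lines) for the demethylases and deacetylases and for 8 partner lists, in the Setd8 knockdown and the maturing control, each over the proliferating control. The widest line is that of the demethylases and deacetylases in the knockdown, from -1.43 for Hdac7 to 1.42 for Hdac5, while its median is -0.03.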

How the data were processed

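RNA from 3 cultures of mouse erythroblasts was analysed. Cufflinks 2.0.2, Cuffdiff, FastQC 0.10.1 and mm9 are named in the submitters' processing notes, while aligner and annotation were not given in the sources used here. As deposited, the data are 1 table in Cuffdiff layout, whose level columns were read as FPKM computed by the authors. Its other columns, per the file headers, hold the authors' log2 ratio, test statistic, p-value, q-value and a mark for a q-value of at most 0.05. The table used here holds 23234 genes for the knockdown and for maturation and 19067 for knockdown against maturing control. Libraries were matched to labels by title, and for the knockdown by its target and title number together.

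Ratios were computed as log2 of FPKM + 1, where folds of rare transcripts come out too small, and no test was run, since each group had 1 library. The standard error of the authors' model is the deposited log2 ratio divided by the statistic. Absolute depth is unknown, and relative depth came from the commonest ratio among genes below 0.03 FPKM. Spans are those of the table (mm9), and promoters are on GRCm38.p6. Of 150 entries in 14 gene lists, 149 matched a row. The members and lists were chosen with earlier results of these data known. Up to 4 genes per list are named, those marked first and then the largest ratios at 5 FPKM or more. Alternatives were other pseudocounts (0.1 and 5), filters, scalings, sizes and a q-value under 0.01. Ratio, count and depth steps were tested on simulated data. Python 3.11.15, numpy 2.4.6 and pandas 2.3.3 were used.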

Additional observations from a re-analysis of the deposited data

How the results depend on the processing

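No paired analysis was possible because each group had 1 library. In the knockdown, 2 members were past a log2 ratio of 0.5 higher and 4 lower. With a pseudocount of 5 these counts were 1 and 2, and with a size of 1 they were 1 and 1. Among members at 5 FPKM or more 1 was higher. With a pseudocount of 0.1 there were 5 lower. The lower count was 3 centred on abundant genes and with equal upper quartiles, and 4 on the TPM scale. Sirt2 was not past 0.5 under these 3 scalings, at -0.43, -0.43 and -0.49, while Hdac11 was at -0.74 on the TPM scale. Values on that scale were larger, for Hdac11 1.80 against 0.318 FPKM in the proliferating control, so the added 1 weighed less. The plain ratio of Hdac11 was 0.365 from FPKM and 0.379 on the TPM scale. In maturation 1 member was past 0.5 higher. With a pseudocount of 0.1 and under each of the 3 other scalings this was 2, Kdm3b being the second. With a pseudocount of 5, a size of 1 or a 5 FPKM limit it was 0. At a q-value under 0.01, 0 members were marked in maturation in the authors' deposited table. The median of the members in the knockdown, -0.03, was 0.06 centred on abundant genes, 0.05 with equal upper quartiles and 0.03 on the TPM scale, so its sign depends on the scaling. In maturation the median ranged from 0.07 to 0.18. Of 170 member ratios recomputed per comparison, 4 in the knockdown and 2 in maturation moved by more than the implied standard error, or its median over the members for Hdac5 and Hdac9, which have none. The 6 belong to Hdac5, Hdac11 and Sirt5. No ratio of 0.5 or more in size changed sign, but ratios of at most 0.03 in size did so, those of Hdac1, Hdac3 and Kdm5b in the knockdown (9 values) and of Hdac2, Kdm2a and Sirt4 in maturation (4 values). Scaling the sums by class and mark was added after the data were seen. Depth and the single library per group limit all genes near 1 FPKM.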

Other observations

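Other JmjC demethylase genes appear in the table under older symbols that the symbol rule does not match, Jmjd5 (now Kdm8) and Jhdm1d (now Kdm7a). Jmjd5 was at 1.18 FPKM in the knockdown, 2.10 FPKM in the maturing control and 2.24 FPKM in the proliferating control. Jhdm1d was at 0.474, 0.885 and 0.721 FPKM in that order. Both had their lowest value in the knockdown, at 52.6% and 65.8% of the proliferating control. The log2 ratio of FPKM + 1 of Jmjd5 in the knockdown was -0.57, past 0.5 in size, and Jmjd5 is in none of the partner lists. The authors' deposited table did not mark it.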
